A study of Mus musculus with 4 samples.

Results

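The genes described here encode the secreted and membrane-bound metalloproteases that cut the extracellular matrix, and the inhibitors that hold them in check. They were taken by symbol: every gene named Mmp, Adamts or Timp followed by a number (with a letter allowed after an Mmp number). This gave 46 of the 35857 genes listed, 23 Mmp, 19 Adamts and 4 Timp genes. Messenger RNA was measured in 4 libraries of glial progenitors that embryonic cerebral cortical neural stem cells of C57BL/6 mice had formed, 24 hr into induced glial differentiation. There were 2 control libraries (genotype wild type) and 2 Qk_KO libraries (genotype Qk-/-), a knockout of the gene for the RNA-binding protein Quaking. The labels name no promoter or Cre for the knockout and are silent on whether replicate libraries are separate cultures. The p-values therefore rest on the spread between these libraries, in part pooled over all genes tested. This spread may be technical in the control pair. The abundance unit is TPM, a transcript's share of all transcripts after scaling by length, so levels of different genes can be compared. Where a pair of values is given, replicate 1 comes first.

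Matrix metalloproteases (MMPs) are zinc enzymes made as inactive proenzymes. Most are secreted, while membrane-type MMPs stay on the cell surface, where they cut collagens, adhesion proteins and the proenzymes of other MMPs. ADAMTS proteases are secreted relatives with thrombospondin repeats, and several of them cut the chondroitin sulfate proteoglycans that fill the matrix of the developing brain. TIMPs (tissue inhibitors of metalloproteases) plug the active site. Neural progenitors and glia use this system when they migrate, remodel the matrix around themselves and release growth factors from it.

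Many of these genes were expressed weakly or not at all. Averaged over the 4 libraries, 27 of the 46 reached 1 TPM, that is 10 Mmp, 13 Adamts and 4 Timp genes, and only these were tested. Of the other 19, 4 (Mmp1a, Mmp1b, Mmp7 and Mmp20) were listed at 0 in every library. One, Adamts17, reached 1 TPM in a single library of each group, at 0.58 and 1.22 TPM in the control pair and at 0.62 and 1.06 TPM in the Qk_KO pair. The remaining 14 lay above 0 somewhere and below 1 TPM everywhere, the highest single value being 0.99 TPM.

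The start regions of 3 well expressed Mmp genes looked different from those of Mmp genes in 1 block of chromosome 9. For that reason 7 start regions are shown. Of the 46 members, 32 had an entry in a RefSeq promoter table (build GRCm38.p6, 250 bases before to 50 after a start site). It was searched on both strands for the AP-1 site (TGAGTCA or TGACTCA), the TATA box (TATAAA or TTTATA) and the GC box (GGGCGG or CCGCCC). Each sequence gives the last 100 bases before the start site, 5′ to 3′ on the gene's strand, with matches to these 3 motifs in capitals; in Mmp14 a pair of GC boxes lies end to end. The first 3 genes were well expressed, Mmp12 was expressed weakly, and the last 3 were under 1 TPM in every library.
Mmp14, chr14:54431498-54431597, plus strand: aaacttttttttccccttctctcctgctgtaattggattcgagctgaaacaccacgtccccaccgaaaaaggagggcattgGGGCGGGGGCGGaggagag
Mmp24, chr2:155775242-155775341, plus strand: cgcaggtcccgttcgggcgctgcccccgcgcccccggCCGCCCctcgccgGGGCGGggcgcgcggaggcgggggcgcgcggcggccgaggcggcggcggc
Mmp11, chr10:75932503-75932602, minus strand: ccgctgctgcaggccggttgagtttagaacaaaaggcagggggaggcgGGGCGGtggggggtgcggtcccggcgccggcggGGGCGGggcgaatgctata
Mmp12, second of its listed starts, chr9:7347274-7347373, plus strand: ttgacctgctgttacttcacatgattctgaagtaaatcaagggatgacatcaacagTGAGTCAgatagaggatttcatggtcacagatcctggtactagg
Mmp3, chr9:7445722-7445821, plus strand: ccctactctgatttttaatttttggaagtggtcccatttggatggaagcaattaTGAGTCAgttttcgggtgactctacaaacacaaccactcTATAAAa
Mmp10, chr9:7502242-7502341, plus strand: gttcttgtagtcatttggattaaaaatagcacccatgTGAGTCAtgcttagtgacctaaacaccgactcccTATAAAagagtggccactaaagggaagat
Mmp13, chr9:7272414-7272513, plus strand: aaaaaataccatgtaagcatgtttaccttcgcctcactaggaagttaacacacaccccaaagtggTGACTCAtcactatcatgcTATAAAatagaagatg

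A GC box was found in 13 of the 16 tested members with an entry and in 5 of the 16 untested ones, against 35.7% of the 32851 promoters in the table. The 5 untested ones were Adamts2, Adamts13, Adamts18, Adamts20 and Mmp25. The AP-1 site was found in 1 tested member, Mmp12, and in 6 untested ones (Mmp1a, Mmp1b, Mmp3, Mmp7, Mmp10 and Mmp13), against 5.20% of all promoters. All of these 7 also held a TATA box, a motif present in 13.6% of all promoters. In Mmp12 its match lay 4 to 9 bases after the start site, and in Mmp3 at -7 to -2. The first listed start of Mmp12 held none of these motifs. A TATA box was further found in Adamts1 among the tested members, and in Mmp8, Mmp20 and Mmp21 among the untested ones. Members were counted by gene, with a match at any listed start. The background counts each promoter entry, whatever the expression of its gene. These are matches of letters and were not tested as sites of binding.

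**Figure D1:**
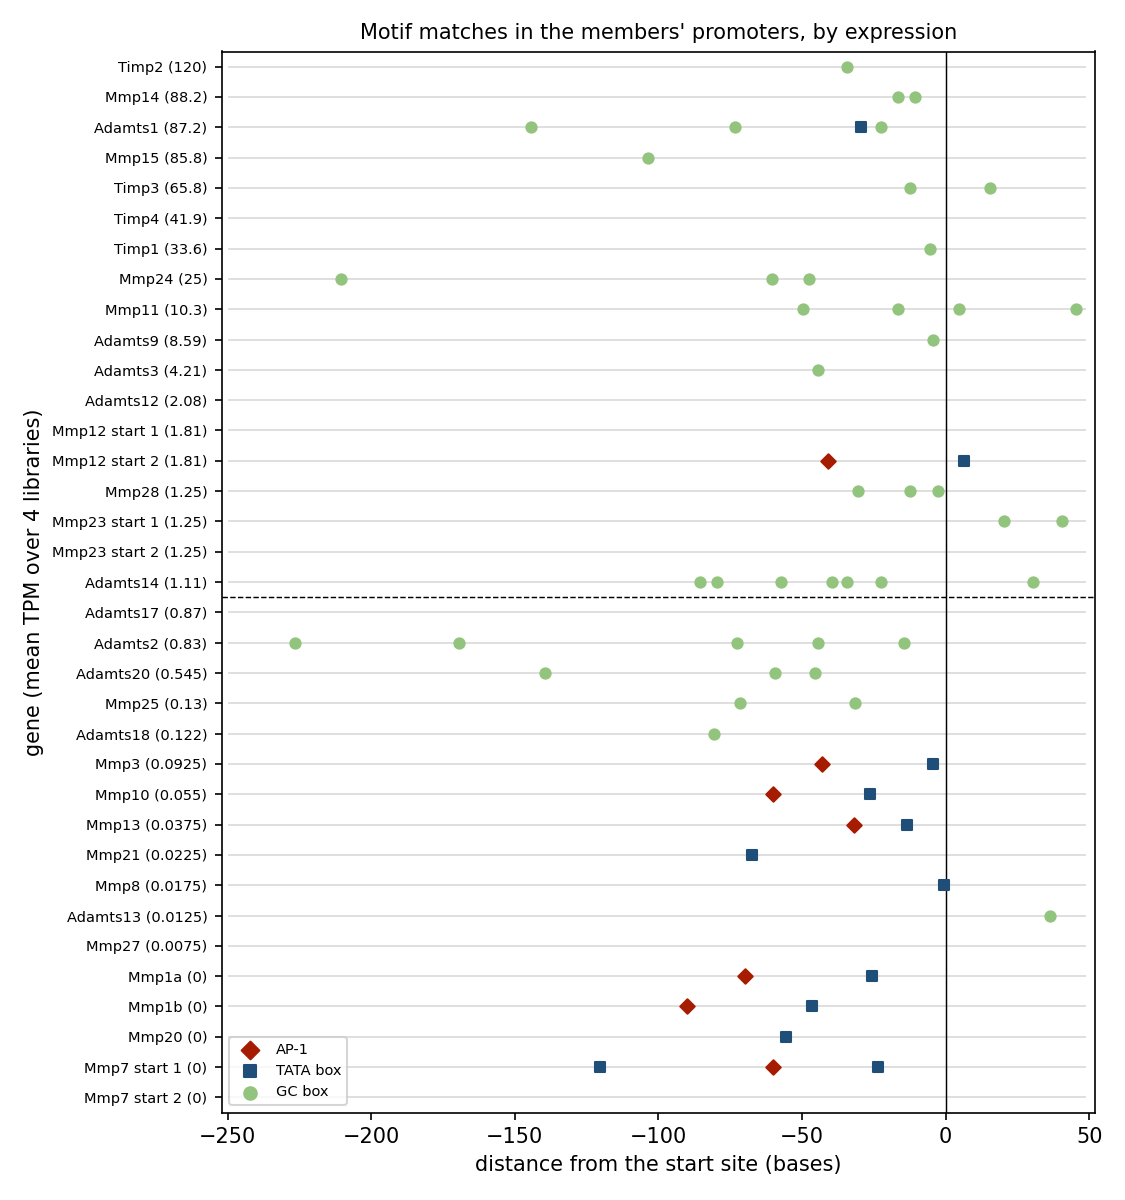
Matches to the AP-1, TATA box and GC box motifs along the promoters of the members with an entry, plotted by distance from the start site in bases and ordered from the highest to the lowest mean TPM (in brackets). The dashed line separates the tested members, mostly with GC boxes, from those under 1 TPM. The latter hold 6 of the 7 genes with an AP-1 site, and 5 genes with a GC box.

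The genes with AP-1 sites belong to 1 block of the genome. On chromosome 9, 10 Mmp genes lie between 7272514 and 7699585 (GENCODE M21, GRCm38). Mmp12 was the only one of them with a mean of at least 1 TPM, 4 were listed at 0 throughout, and the highest value among the 9 others was 0.17 TPM. The block holds the collagenase genes Mmp1a, Mmp1b, Mmp8 and Mmp13, the stromelysin genes Mmp3 and Mmp10, the matrilysin gene Mmp7 and the enamel protease gene Mmp20. GENCODE lists Mmp1a as a polymorphic pseudogene. No GC box was matched in the promoters of this block, Mmp12 included, and the 5 untested members with a GC box lie outside it. The contrast between start regions therefore goes with this block as well as with expression level, and these were not separated.

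Qk itself was checked first. It stood at 208 and 215 TPM in the control pair and at 36.1 and 43.7 TPM in the Qk_KO pair, so all 4 libraries lay on the side of their labels. Qk transcript was thus reduced and not absent in Qk_KO, and protein was not measured. Each library had 18846 to 19387 genes above 0 TPM, and across genes Pearson's r (log2 scale) was 0.985 and 0.978 within groups and 0.951 to 0.973 between them. All 7 neural stem cell genes examined were expressed in every library, from Hes1 at 14.7 to 17.3 TPM up to Vim and Fabp7 at 2346 TPM or more. So was the glial lineage gene Olig2, at 377 to 517 TPM, while the mature oligodendrocyte gene Mog was at 0. Other markers differed between groups. Pdgfra, 1 of 9 oligodendrocyte lineage genes tested, was called lower, from 53.1 and 35.8 (control) to 5.37 and 12.1 TPM (Qk_KO). Of 9 astrocyte genes Aqp4 was called higher and Slc1a3 lower. Snap25 and Ina, of 8 neuron genes, and Pax6, of 7 neural stem cell genes, were called higher. The rest of these genes were not called, and over all genes tested 3.24% were. The smooth muscle actin gene Acta2 was at 1130 to 3484 TPM, while the other pericyte and fibroblast genes examined, apart from Pdgfrb and 3 collagen genes, were under 1 TPM. Of 10 endothelial genes, 7 averaged under 1 TPM, Cdh5 and Cldn5 among them at 0.05 TPM or less, while Kdr was at 2.59 to 4.11, Flt1 at 1.59 to 2.55 and Egfl7 at 1.56 to 3.47 TPM. None of these 3 was called, and Kdr was higher in both Qk_KO libraries than in both controls. In Qk_KO replicate 1, Xist was at 0.04 TPM and the Y-linked gene Eif2s3y at 35.4 TPM; in the other 3 libraries Xist was at 57.6 to 62.5 TPM and Eif2s3y at 0. The Qk_KO pair thus differed in sex-linked transcripts, so its spread is not that of repeats of 1 culture. Expression was compared as Qk_KO minus control with limma on log2(TPM + 1), and "called" means a Benjamini-Hochberg adjusted p under 0.05 over all 13260 genes tested. Because these are bulk samples, fewer cells of a type and less RNA per cell cannot be told apart.

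In the Qk_KO libraries 3 protease genes rose: Mmp14, the main membrane-type collagenase, Mmp11, which encodes stromelysin-3, and Adamts8. No member was called lower. Thus 3 of the 27 tested members (11.1%) were called, against 3.24% of all genes tested. For the higher direction alone the background was 1.83% of all genes, and for the lower direction it was 1.42%. At an unadjusted p under 0.05, without correction, 8 members were higher and 3 lower, against 15.8% and 12.6% of all genes tested. The median log2 fold change of the 27 was 0.23, against 0.04 over all genes tested. The values of the 2 groups did not overlap for 15 of the 27 (55.6%), 11 higher and 4 lower in Qk_KO, against 61.1% of all genes tested (33.6% higher and 27.5% lower).

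**Figure D2:**
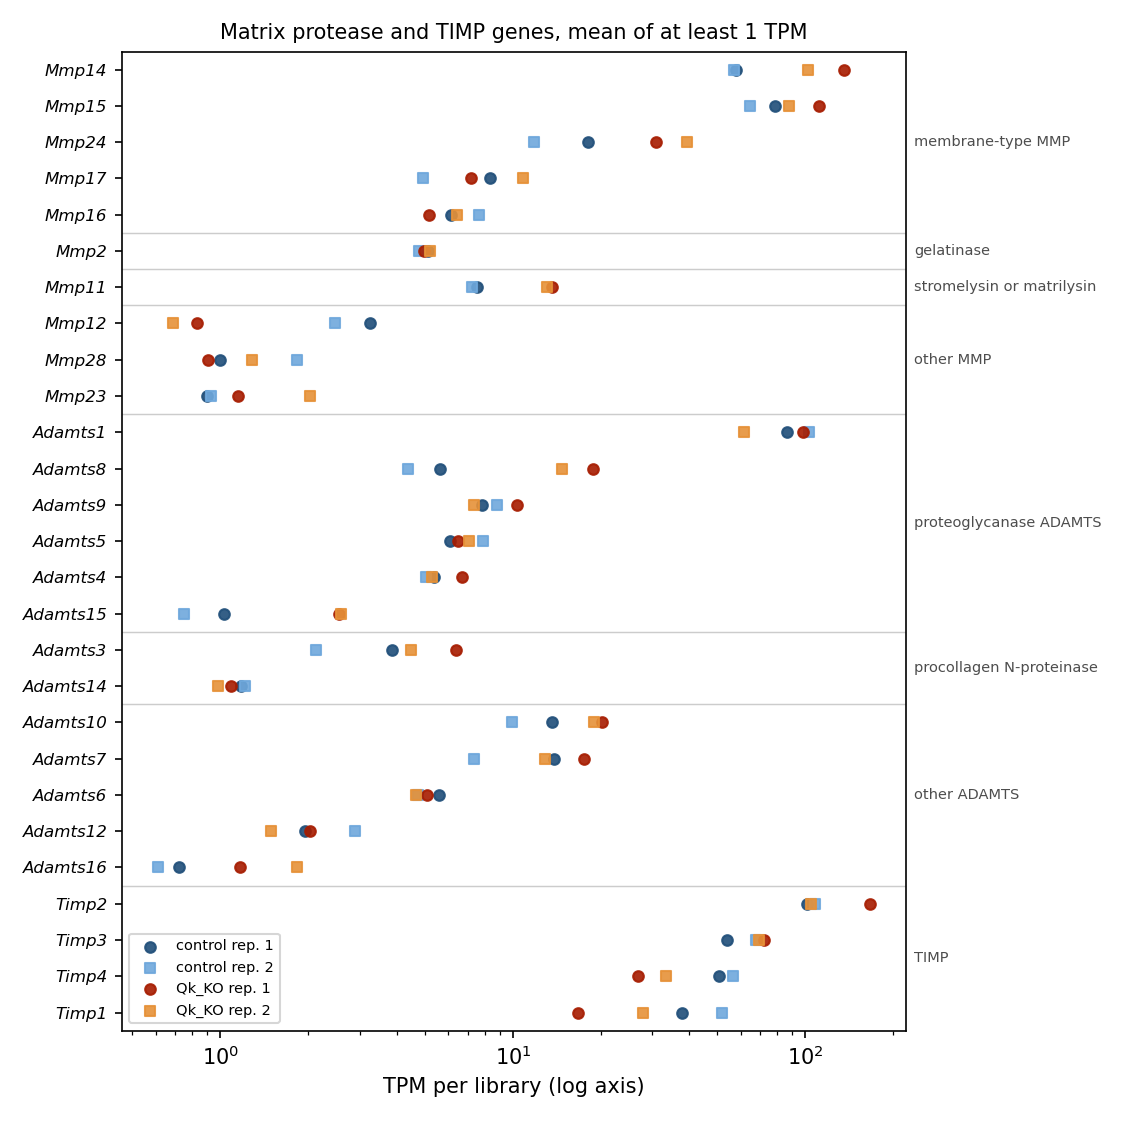
TPM of the 27 tested members in each library on a log axis, grouped by role, with circles for replicate 1 and squares for replicate 2 (blue control, red and orange Qk_KO). Mmp14, Mmp11 and Adamts8 lie to the right in both Qk_KO libraries, while Mmp12, Timp1 and Timp4 lie to the left.

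Membrane-type MMPs were by far the most abundant MMP transcripts. Together the 6 genes made up 90.0% and 88.7% of the summed Mmp TPM in the control pair, and 92.8% and 91.2% in the Qk_KO pair. Of the 5 tested, 1 was called higher, 4 were not called, and 4 had log2 fold changes above 0.

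Mmp14 encodes MT1-MMP, which cuts fibrillar collagen and activates the proenzyme of Mmp2 on the cell surface. It was at 58.0 and 56.9 TPM in the control pair, and at 136 and 102 TPM in the Qk_KO pair. Both Qk_KO values were far above both control values, which lay close together, and Qk_KO replicate 1 was the higher of its pair. The means were 57.5 ± 0.762 and 119 ± 24.2 TPM (SD, n = 2 per group), a ratio of 2.07. On the log2 scale the fold change was 1.02 (SE 0.15, adjusted p = 0.0426, limma, Benjamini-Hochberg). Mmp14 lies on chromosome 14 at 54431612 to 54445364, plus strand. In the controls it ranked below Mmp15 among the Mmp genes, and in Qk_KO above it, in both libraries of each group.

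Mmp15 (MT2-MMP) is the closest relative of Mmp14 in function. It was at 78.9 and 64.7 TPM in the controls and at 111 and 88.2 TPM in Qk_KO. Both Qk_KO values lay above both control values, but the groups nearly met and the gene was not called (log2 fold change 0.47, SE 0.16, adjusted p = 0.131, limma, Benjamini-Hochberg).

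Mmp24 (MT5-MMP) is the membrane-type MMP best known from the nervous system, where it cuts N-cadherin and the amyloid precursor protein. It was at 18.02 and 11.8 TPM in the controls and at 30.9 and 39.4 TPM in Qk_KO, with no overlap between groups. Its log2 fold change of 1.20 (SE 0.23) was larger than that of Mmp14 but its adjusted p was 0.0528 (limma, Benjamini-Hochberg), just above the threshold, so it was not called. Some settings brought this p below, among them a pseudocount of 0.1 (0.0499), a mean of at least 5 TPM (0.0459) and small RNA genes left out (0.0428). It stayed above with median-ratio scaling (0.0523), quantile normalization (0.0559), without the trend (0.0904) and with no filter (0.151). An exon of Mmp24 shares 637 bases with BC029722 on the other strand, and the strand setting of the counting is not given, so the level of Mmp24 is uncertain. BC029722 was at 27.9 and 24.1 TPM in the control pair and at 32.2 and 32.4 TPM in the Qk_KO pair.

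The other membrane-type genes gave no sign of a common direction. Mmp17 (MT4-MMP), held in the membrane by a lipid anchor, was at 8.37 and 4.93 TPM in control and 7.17 and 10.8 TPM in Qk_KO. Mmp16 (MT3-MMP) was at 6.15 and 7.67 TPM in control and 5.16 and 6.42 TPM in Qk_KO. In both genes the groups overlapped and the adjusted p was 0.409 or higher (limma, Benjamini-Hochberg). Mmp25 (MT6-MMP), known from leukocytes, was at most 0.21 TPM.

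Of the 5 tested MMPs that are not membrane-type, Mmp11 was called and 4 were not. Mmp11 is a stromelysin that is activated inside the cell by furin and released in active form. It stood at 7.54 and 7.26 TPM in the control pair and at 13.5 and 13.0 TPM in the Qk_KO pair. Replicates of a group lay close together while the groups were well apart, at 7.40 ± 0.198 against 13.3 ± 0.360 TPM (SD, n = 2 per group). On the log2 scale the fold change was 0.77 (SE 0.13, adjusted p = 0.0493, limma, Benjamini-Hochberg), close to the threshold. With median-ratio scaling the adjusted p was 0.0519, and with quantile normalization it was 0.0563.

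Mmp2, the gelatinase that Mmp14 activates, was at 5.12 and 4.77 TPM in the controls and at 4.95 and 5.22 TPM in Qk_KO. These 4 values overlapped fully (log2 fold change 0.03, SE 0.16, adjusted p = 0.91, limma, Benjamini-Hochberg), and with quantile normalization the sign was negative. The other gelatinase gene, Mmp9, did not reach 1 TPM in any library. Mmp28 (epilysin) was at 1.0 and 1.82 TPM in control and 0.91 and 1.28 TPM in Qk_KO. Mmp23, which lacks the usual cysteine switch of MMP proenzymes, was at 0.90 and 0.93 TPM in control and 1.15 and 2.02 TPM in Qk_KO. Exons of Mmp28 share 466 bases with 1700020L24Rik on the other strand. Neither gene was called, with adjusted p-values of 0.688 and 0.352 (limma, Benjamini-Hochberg).

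Mmp12, the macrophage elastase, was the member with the lowest ratio of Qk_KO to control among the 27 tested. It was at 3.25 and 2.47 TPM in the controls and at 0.83 and 0.69 TPM in Qk_KO, so all values were low and the groups lay apart. On the log2 scale the fold change was -1.13 (SE 0.23, adjusted p = 0.0573, limma, Benjamini-Hochberg), which did not pass. Most markers of microglia, the macrophages of the brain, lay lower in the same libraries. Of 15 such genes 10 were tested, and all 10 had both Qk_KO values below both control values, against 27.5% of all genes tested. Of the 10, 0 were called, although 9 were lower at an unadjusted p under 0.05 in limma, against 12.6% of all genes tested. Their summed level was 67.8 and 58.0 TPM in the control pair and 32.2 and 25.2 TPM in the Qk_KO pair. Of the defining markers, P2ry12 was at 0 in 1 control and 1 Qk_KO library and at most 0.04 TPM. Tmem119 was at 0.74 and 0.47 TPM in control and at 0.53 and 1.21 TPM in Qk_KO. For both of them and for Aif1, all untested, the groups overlapped. The part of these cells in the level of Mmp12 was not tested.

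**Figure D3:**
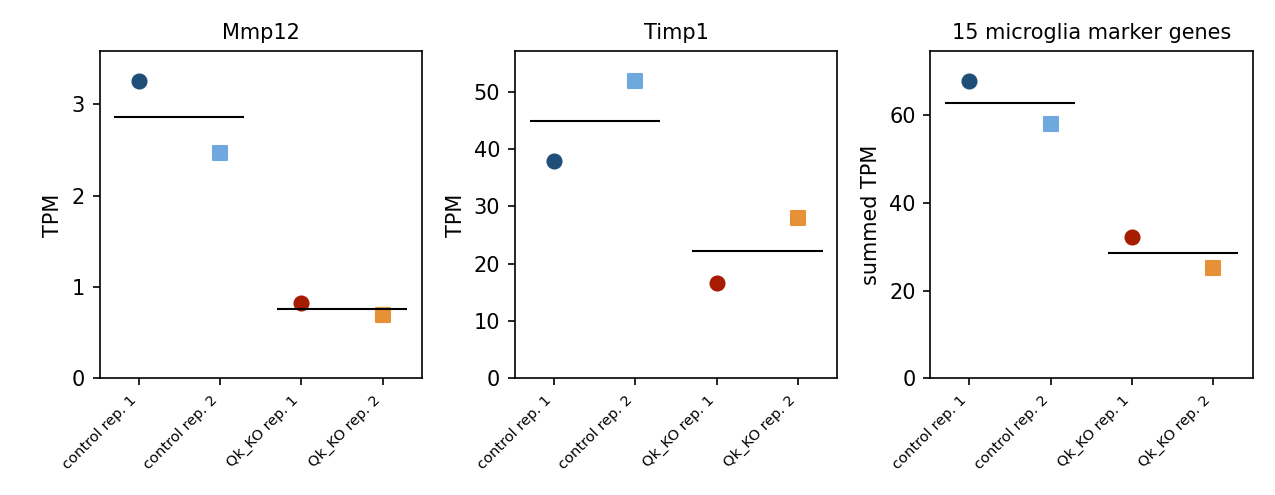
TPM of Mmp12 and Timp1 and the summed TPM of 15 microglia marker genes in each library (points), with the mean of each group as a line and axes from 0. In all 3 panels both Qk_KO libraries lie below both control libraries.

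Among the ADAMTS genes that cut proteoglycans, 1 of the 6 tested was called and 5 were not. Adamts1, an early response gene and the most abundant Adamts transcript, was at 86.7 and 103 TPM in the controls and at 97.8 and 61.9 TPM in Qk_KO. The groups overlapped (adjusted p = 0.463, limma, Benjamini-Hochberg), and the sign turned positive, at 0.05, without Qk_KO replicate 2.

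Adamts8, an aggrecan-cutting protease also described as an inhibitor of blood vessel growth, had the largest fold change of the 27. It was at 5.63 and 4.37 TPM in the control pair and at 18.8 and 14.7 TPM in the Qk_KO pair. Every Qk_KO value was far above every control value, with means of 5.0 ± 0.891 and 16.8 ± 2.93 TPM (SD, n = 2 per group) and a ratio of 3.35. On the log2 scale the fold change was 1.56 (SE 0.19, adjusted p = 0.0346, limma, Benjamini-Hochberg). It lies on chromosome 9 at 30942562 to 30963838, plus strand. An antisense gene that shares exon sequence with it, Gm29724, was at 0.08 TPM or lower.

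Adamts15, another proteoglycan-cutting enzyme, is the neighbour of Adamts8, with 20109 bases between the annotated genes. It was at 1.03 and 0.75 TPM in control and at 2.55 and 2.59 TPM in Qk_KO. The groups did not overlap, but the gene was not called (log2 fold change 0.92, SE 0.22, adjusted p = 0.0717, limma, Benjamini-Hochberg).

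The aggrecanase genes Adamts4 and Adamts5 and the versican-cutting Adamts9 were measured at similar levels in both groups. Adamts4 was at 5.36 and 5.05 TPM in control and 6.68 and 5.27 TPM in Qk_KO. Adamts5 was at 6.07 and 7.90 TPM in control and 6.48 and 7.07 TPM in Qk_KO. Adamts9 was at 7.87 and 8.79 TPM in control and 10.3 and 7.35 TPM in Qk_KO. Their log2 fold changes of 0.16, -0.03 and 0.06 were no larger than their SEs of 0.18, 0.18 and 0.20. Exons of Adamts9 share up to 167 bases with genes on the other strand. Adamts20 was under 1 TPM in every library.

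The procollagen N-proteinases trim the amino-terminal propeptide of collagens, and Adamts3 also acts on the growth factor VEGF-C and on reelin. Adamts3 was at 3.85 and 2.12 TPM in control and 6.39 and 4.49 TPM in Qk_KO, without overlap and not called (log2 fold change 0.71, SE 0.28, adjusted p = 0.175, limma, Benjamini-Hochberg). Adamts14 was at 1.18 and 1.21 TPM in control and 1.09 and 0.98 TPM in Qk_KO, slightly apart and not called (adjusted p = 0.781, limma, Benjamini-Hochberg), and Adamts2 was under 1 TPM.

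Of the remaining ADAMTS genes, 5 were tested and 0 called (limma), with 1 of the 5 at an unadjusted p under 0.05. That one was Adamts10, which binds fibrillin microfibrils, at 13.6 and 9.94 TPM in control and 20.1 and 18.9 TPM in Qk_KO. Its log2 fold change was 0.70 (SE 0.17, adjusted p = 0.0764, limma, Benjamini-Hochberg). Its relative Adamts6 was at 5.58 and 4.73 TPM in control and 5.10 and 4.66 TPM in Qk_KO, with overlap. Adamts7 and Adamts12 both cut cartilage oligomeric matrix protein. Adamts7 was at 13.8 and 7.38 TPM in control and 17.5 and 12.8 TPM in Qk_KO, and Adamts12 at 1.94 and 2.88 TPM in control and 2.03 and 1.49 TPM in Qk_KO. In both the groups overlapped, and exons of Adamts7 share 122 bases with Tbc1d2b on the other strand. Adamts16 was at 0.72 and 0.61 TPM in control and 1.17 and 1.82 TPM in Qk_KO, apart but not called (adjusted p = 0.212, limma, Benjamini-Hochberg).

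**Figure D4:**
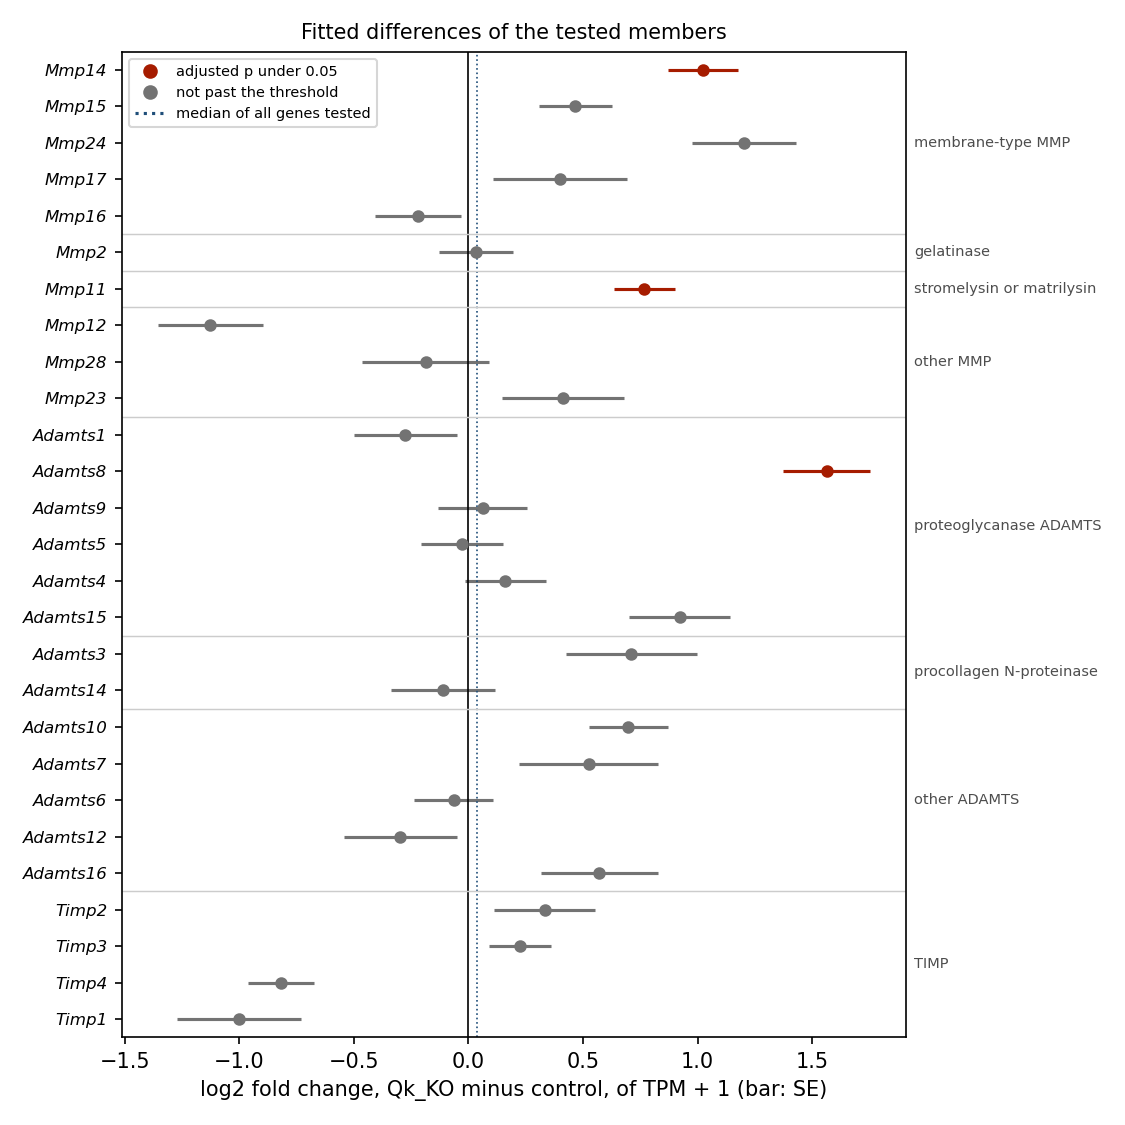
Log2 fold change of TPM + 1, Qk_KO minus control, for the 27 tested members by role, with bars of 1 SE. The 3 called genes are in red, and the dotted line marks the median of all 13260 genes tested, 0.04.

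No TIMP gene was called, and the 4 inhibitors divided into a pair with log2 fold changes above 0 and a pair below. In each sentence the levels are for control replicates 1 and 2, then for Qk_KO replicates 1 and 2. Timp2, which links Mmp14 to the Mmp2 proenzyme, was at 101 and 108 TPM, then 167 and 105 TPM. Timp3, the inhibitor that binds to the matrix and also blocks ADAMTS enzymes, was at 53.8 and 67.7 TPM, then 72.0 and 69.6 TPM. The high Timp2 value belonged to Qk_KO replicate 1 alone, and without that library the log2 fold change of Timp2 was -0.002 instead of 0.33.

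Timp4, an inhibitor found mainly in brain and heart, was at 50.6 and 56.6 TPM in the controls and at 26.7 and 33.5 TPM in Qk_KO. The groups lay apart at 53.6 ± 4.29 and 30.1 ± 4.77 TPM (SD, n = 2 per group), a ratio of 0.562. For a log2 fold change of -0.82 (SE 0.14), the adjusted p of 0.0502 (limma, Benjamini-Hochberg) narrowly missed the threshold. Several settings brought it below, among them pseudocounts of 0.1 (0.0479) and 0.5 (0.0493) and median-ratio scaling (0.0469), while it stayed above with quantile normalization (0.0506), without the trend (0.0844), with no filter (0.143) and without any 1 library (0.0618 to 0.289). Exons of Timp4 and of Syn2, on the other strand, share up to 90 bases, so part of its level could be counted from either gene.

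Timp1, an inducible inhibitor that acts weakly on membrane-type MMPs, was at 37.9 and 51.8 TPM in the controls and at 16.7 and 27.9 TPM in Qk_KO. All control values exceeded all Qk_KO values, but the gene was not called (log2 fold change -1.003, SE 0.27, adjusted p = 0.0888, limma, Benjamini-Hochberg). Timp1 lies on the X chromosome at 20870166 to 20874735, plus strand. The lowest of its values came from Qk_KO replicate 1, the library with Xist at 0.04 TPM. Without it the log2 fold change was -0.65 and the part of the sex chromosomes was not tested.

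Of the summed levels, the Mmp sum stood apart between groups, while the Timp and Adamts sums overlapped. Summed Mmp TPM was 188 and 165 in the control pair and 313 and 271 in the Qk_KO pair. All the Qk_KO sums were above the control sums, with means of 177 ± 16.7 and 292 ± 30.2 TPM (SD, n = 2 per group). Summed Timp TPM was 244 and 284 in control and 282 and 236 in Qk_KO, and these overlapped. The ratio of summed Timp to summed Mmp TPM was accordingly 1.29 and 1.73 in control and 0.901 and 0.871 in Qk_KO. Timp1 and Timp4 together made up 36.3% and 38.2% of the Timp sum in control and 15.4% and 26.1% in Qk_KO. Summed Adamts TPM was 155 and 161 in control and 198 and 147 in Qk_KO, with overlap. With 2 libraries a group the smallest p of a two-sided exact permutation test is 33.3%. No test was run on the sums, and transcript levels do not measure active enzyme.

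**Figure D5:**
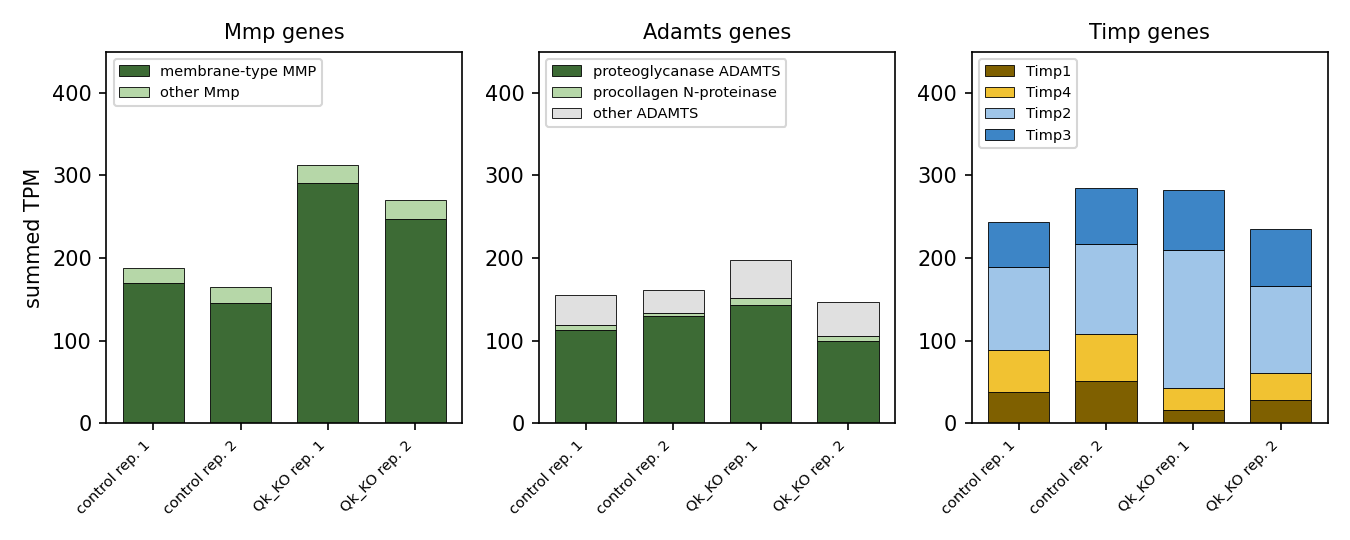
Summed TPM of the Mmp, Adamts and Timp genes in each library as stacked bars from 0, split by role or by gene. The membrane-type part of the Mmp bars is taller in both Qk_KO libraries, and the Timp bars have similar heights but smaller Timp1 and Timp4 parts.

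Most of these calls were lost when 1 library was left out. Such a fit has a group of 1 library, and calls over all genes fell as well, so a lost call is not particular to these genes. Without 1 library the log2 fold change ranged from 0.81 to 1.23 for Mmp14, from 0.74 to 0.79 for Mmp11 and from 1.39 to 1.73 for Adamts8. Mmp14 kept its call without Qk_KO replicate 2 (adjusted p = 0.0376) and lost it without control replicate 1 (0.112), control replicate 2 (0.252) or Qk_KO replicate 1 (0.075). These are limma p-values with Benjamini-Hochberg adjustment. Mmp11 lost its call without any of the 4 in turn, and so did Adamts8. All 3 lost it with no filter on low genes (0.139, 0.143 and 0.139 for Mmp14, Mmp11 and Adamts8) and without limma's mean-variance trend (0.0785, 0.0706 and 0.0598).

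Sequence motifs of the kind Quaking binds were looked up in the members' 3′ UTRs, since the knockout targets the gene of that protein. The words ACTAAC and ACTAAT (DNA letters, sense strand) were counted in the longest complete coding transcript of each gene (GENCODE M21, GRCm38). At least 1 was found in 7 of the 27 tested members (25.9%) and in 34.7% of the 12297 tested genes with such a transcript, with median 3′ UTR lengths of 1783 and 1210 bases. The 3 called genes, Mmp14, Mmp11 and Adamts8, held none in this window, and neither did Mmp24, Mmp12 or Timp1. The 7 were Adamts1 with 3, Adamts5 with 4, Adamts12, Adamts15 and Timp4 with 2 each, and Timp2 and Timp3 with 1 each. The first site of Adamts1, that of Timp3 and the pair of Timp4 are shown with 10 bases on each side and the word in capitals; a match is not evidence of binding.
Adamts1, chr16:85795083-85795088, minus strand: gttgcactgtACTAACtagatacttc
Timp3, chr10:86345955-86345960, plus strand: cgtcccagacACTAACtcttcccaga
Timp4, chr6:115243049-115243054, minus strand: gttctaaaccACTAATagcctggtca
Timp4, chr6:115242611-115242616, minus strand: gtaatatagaACTAATaaccttaggg

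Other genes of pericellular proteolysis were listed by role, 63 in all, of which 54 were tested. In Qk_KO 2 were called higher, 1 lower and 51 were not called, that is 5.56% against 3.24% of all genes tested, and their median log2 fold change was -0.12 against 0.04. Spock1, a testican proteoglycan whose family is known to modulate membrane-type MMPs, rose from 1.59 and 1.03 TPM in the control pair to 4.38 and 5.76 TPM in the Qk_KO pair (log2 fold change 1.40, SE 0.23, adjusted p = 0.047, limma, Benjamini-Hochberg). The matrix glycoprotein gene Tnc also rose, from 267 and 256 TPM to 479 and 433 TPM (log2 fold change 0.80, SE 0.10, adjusted p = 0.0336). Bcan, the brain proteoglycan brevican and a substrate of Adamts4 and Adamts5, fell from 726 and 642 TPM to 435 and 457 TPM (log2 fold change -0.61, adjusted p = 0.047).

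Of the 16 substrates tested, 14 had log2 fold changes below 0, against 6041 of all 13260 genes tested. Their median was -0.25, against 0.04. In 6 of the 16 the groups overlapped. In the other 10 (62.5%) they did not, 2 higher and 8 lower in Qk_KO. Of all genes tested 61.1% did not overlap, 33.6% higher and 27.5% lower. The list was drawn up with earlier results of these data known. In the other roles nothing was called by limma, and the 2 genes of highest level in each are given. Among the ADAM surface proteases Adam9 was at 108 ± 3.04 and 77.7 ± 16.6 TPM and Adam15 at 60.4 ± 1.24 and 48.3 ± 1.004 TPM in control and Qk_KO (SD, n = 2 per group). Of the ADAMTS-like proteins, which lack the protease domain, Adamtsl5 was at 3.96 ± 0.134 and 3.61 ± 0.233 TPM and Adamtsl3 at 2.80 ± 0.262 and 4.06 ± 0.361 TPM. In the plasmin system, which activates several secreted MMPs, the protease inhibitor gene Serpine2 was at 734 ± 63.9 and 668 ± 173 TPM and the activator gene Plat at 140.4 ± 20.1 and 154 ± 7.23 TPM. Of the procollagen proteases and their enhancers, Bmp1 was at 110.3 ± 2.96 and 145.5 ± 19.7 TPM and Pcolce2 at 26.1 ± 0.679 and 18.1 ± 1.82 TPM. The lysosomal cathepsin genes Ctsd and Ctsb were at 986 ± 136 and 865 ± 115 TPM and at 364 ± 10.1 and 306 ± 2.94 TPM. At an unadjusted p under 0.05 in limma, 11 of the 54 were higher and 13 lower, against the same 15.8% and 12.6%. Spock1, Tnc and Bcan each lost their call without any 1 of the 4 libraries (adjusted p from 0.0528 to 0.276).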

How the data were processed

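The authors deposited TPM per gene, 1 table per library, with Entrez number and symbol. STAR 2.4.1d, RSEM 1.3.0 and builds mm10 and GRCm38.p4 are named in the submitters' processing notes, with no roles. Per the labels' protocols, poly(A) RNA was read with an Ion Proton instrument. The sources used here give no annotation, strand setting or depth, and TPM keeps no depth, so precision is the spread between libraries. Values were taken as log2(TPM + 1), and genes averaging 1 TPM or more were fitted with limma 3.58.1 (R 4.3.3; eBayes with a mean-variance trend), 4 libraries in 1 fit, two-sided, with Benjamini-Hochberg adjustment over 13260 genes and a threshold of 0.05. The fit was tested on simulated data. Fold changes understate those of low genes. Named were all tested members, others reaching 1 TPM in a library, called genes of the related list and the 2 most abundant of each role without a call; further genes were chosen after their values were seen. Members and lists were chosen with earlier results of these data known. Alternatives were 14 settings, including leaving out each library. Promoters came from RefSeq (GRCm38.p6), gene models from GENCODE M21 (GRCm38). Figures used matplotlib 3.10.9.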

Additional observations from a re-analysis of the deposited data

How the results depend on the processing

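The number of calls depended on the settings. The signs of the 3 called members did not change under any of the 14, but most of these settings could not change them. Settings of the filter or of the variance leave the fold change as it was. Where the groups do not overlap, leaving out 1 library cannot turn the sign. Over all genes, the number called was 430 in the design used, 0 with no filter on low genes (4327 at an unadjusted p under 0.05 in limma), 649 at a mean of at least 5 TPM, 41 without limma's trend, 780 with small RNA genes left out and 4 to 148 when 1 library was left out. For the members it was 3, and 0 with no filter (12 at an unadjusted p under 0.05 in limma), 5 with a pseudocount of 0.1, 5 at a mean of at least 5 TPM, 0 without the trend (11 unadjusted), 6 with small RNA genes left out and 0 to 1 without a library (9 to 12 unadjusted). For the related list it was 3, and 0 with no filter (22 unadjusted), 0 without the trend (24 unadjusted) and 0 to 2 without a library, where the 2 were A2m and Pcsk6 (without Qk_KO replicate 2) and not Spock1, Tnc or Bcan. With the replicate number as a block the calls were 1278 over all genes, 8 among the members and 10 in the related list. The numbers are shared by the labels only: the deviations of replicate 1 from its group mean correlated at 0.114 across genes between groups, and 2 pairs cannot show pairing. With quantile normalization the log2 fold change of Mmp2 was -0.11 and that of Adamts9 -0.026, against 0.03 and 0.06. Without 1 library it ranged for Adamts1 from -0.60 to 0.051, for Adamts5 from -0.20 to 0.14, for Adamts6 from -0.16 to 0.036, for Adamts9 from -0.16 to 0.28, for Mmp2 from -0.0086 to 0.076, for Mmp28 from -0.43 to 0.061, for Timp2 from -0.0022 to 0.67, for Plat from -0.0030 to 0.29 and for Serpine2 from -0.43 to 0.11. The difference in summed TPM, Qk_KO minus control, was 115 for Mmp (94.0 to 137 without a library), 14.0 for Adamts (-11.6 to 39.7) and -5.08 for Timp (-28.5 to 18.3). A fit without 1 library has an arm of 1 library, which is assumed to vary like the other group; beyond this, the cause was not tested.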

Other observations

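Timp1, Timp3 and Timp4 lie inside synapsin genes on the opposite strand, Timp1 in Syn1, Timp4 in Syn2 and Timp3 in Syn3 (GENCODE M21, GRCm38). Synapsins coat the vesicles of nerve terminals. The synapsin genes were chosen after their values were seen. Syn1 was at 16.2 and 11.1 TPM in the control pair and at 26.6 and 39.4 TPM in the Qk_KO pair, while Timp1 lay lower in Qk_KO. Syn2 was at 40.6 and 42.2 TPM in control and 56.7 and 53.6 TPM in Qk_KO, while Timp4 lay lower. Syn3 was at 4.63 and 3.77 TPM in control and 6.30 and 11.1 TPM in Qk_KO, and Timp3 was also above its control values in both. For each synapsin gene both Qk_KO values were above both control values, as they were for 33.6% of all genes tested. None of these synapsin genes was called (adjusted p of 0.0599, 0.0749 and 0.119 for Syn1, Syn2 and Syn3, limma, Benjamini-Hochberg). No test of opposite change in host and nested gene was run.

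Adamts8 and Adamts15, which both lay higher in Qk_KO, are neighbours on chromosome 9, and Adamts1 and Adamts5 are neighbours on chromosome 16 with 53059 bases between them. In the second pair the groups overlapped for both genes. Pcsk6, a proprotein convertase and relative of furin, also chosen after its values were seen, was at 38.5 and 37.8 TPM in the control pair and at 10.5 and 19.0 TPM in the Qk_KO pair, not called (adjusted p = 0.0536, limma, Benjamini-Hochberg). Furin, which cuts the propeptides of Mmp11 and Mmp14, was at 39.98 and 35.9 TPM in control and 45.9 and 39.4 TPM in Qk_KO, with overlap.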
